A study of Mus musculus with 20 samples.

Results

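Gpnmb, the 3 transcription factor genes Tfeb, Tfe3 and Mitf, and the 3 folliculin complex genes Flcn, Fnip1 and Fnip2 were followed through bulk RNA sequencing of mouse keratinocytes. The 7 genes were taken by symbol from a table of 25719 genes, and all 7 were among the 12424 genes that passed a filter on low counts. Gpnmb was chosen by its fold change between the treatment routes in these same libraries, so its values in that comparison are a description and no test is given for them. The other 6 were picked for their known place in the pathway upstream of Gpnmb, with earlier results of these data known.

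The cells were primary keratinocytes of the ear and the back, enriched by flow sorting, from 20 mice, 5 in each of 4 groups. The conditional knockout (cKO) mice were K14-CreERTam x Cyp11b1 L2/L2, that is, they carried floxed alleles of Cyp11b1, which encodes the enzyme of the last step of corticosterone synthesis, and a tamoxifen-inducible Cre recombinase under the keratin 14 promoter, active in basal keratinocytes. Controls were Cyp11b1 L2/L2 littermates without Cre, and every mouse of both genotypes received tamoxifen. Topical groups had the back hair shaved and were given tamoxifen in ethanol on the ear (20 µl) and back (100 µl), whereas systemic groups were injected intraperitoneally with 100 µl of tamoxifen at 10 mg/ml in oil and ethanol, each on 5 consecutive days, and cells were taken on day 6. Route, shaving, vehicle and the amount of tamoxifen reaching the skin therefore differed together and cannot be told apart. Ages and sexes of the mice are not given in the sources used here.

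Gpnmb encodes a heavily glycosylated transmembrane protein of melanosomes, lysosomes and the cell surface, best known from melanocytes, macrophages and osteoclasts. Its gene is a target of the MiT/TFE family, basic helix-loop-helix leucine zipper factors that bind E-box sequences and switch on lysosomal and autophagy genes. When nutrients are plentiful, the kinase mTORC1 phosphorylates TFEB and TFE3 at the lysosome and keeps them in the cytoplasm, a step that needs folliculin and its partners FNIP1 and FNIP2, which activate the GTPases RagC and RagD. The factors are thus controlled to a large extent by their location in the cell, which RNA levels do not measure.

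Library totals ran from 11.6 to 50.1 M counts. Cyp11b1 reached at most 6 reads in any library of any group, so its deletion could not be checked from its RNA at this depth. The sorted cells carried keratinocyte RNA throughout, with a summed level of 6 keratinocyte markers between 47998 and 132016 CPM, that is, counts scaled to library size with TMM factors, the unit of all levels given here unless stated. In 6 libraries, all 5 systemic controls and systemic cKO replicate 2, 12 predicted satellite-like genes summed to between 79.4 and 37287 CPM of the library total, against at most 42.5 CPM in the other 14. This split at 50 CPM nearly coincides with the systemic control group, and a fit with the split as a covariate separates it from that group through 1 library, systemic cKO replicate 2. Calls lost in that fit therefore do not show that a difference is absent.

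The promoter sequences shown are those of the pair of genes whose levels did not overlap between routes in either genotype, Gpnmb and Flcn, and of the one gene among the 7 with a match to a family binding motif. Each run is the 250 bases before a RefSeq transcription start on the gene's strand (GRCm38.p6), 5′ to 3′, and capitals mark a motif match. The windows lie at chr6:49036268-49036517 (plus strand, Gpnmb), chr11:59810040-59810289 (minus strand, Flcn) and chr11:54437929-54438178 (plus strand, Fnip1).
Gpnmb: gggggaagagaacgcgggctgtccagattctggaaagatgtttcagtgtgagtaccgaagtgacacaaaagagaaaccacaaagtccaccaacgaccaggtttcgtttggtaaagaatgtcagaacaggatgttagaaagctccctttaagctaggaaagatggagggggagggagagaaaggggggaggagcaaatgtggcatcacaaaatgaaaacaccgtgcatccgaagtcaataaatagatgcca
Flcn: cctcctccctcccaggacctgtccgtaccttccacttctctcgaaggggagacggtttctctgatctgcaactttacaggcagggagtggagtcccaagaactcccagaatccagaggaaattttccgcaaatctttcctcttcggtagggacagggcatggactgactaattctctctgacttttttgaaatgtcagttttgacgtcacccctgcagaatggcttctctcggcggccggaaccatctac
Fnip1: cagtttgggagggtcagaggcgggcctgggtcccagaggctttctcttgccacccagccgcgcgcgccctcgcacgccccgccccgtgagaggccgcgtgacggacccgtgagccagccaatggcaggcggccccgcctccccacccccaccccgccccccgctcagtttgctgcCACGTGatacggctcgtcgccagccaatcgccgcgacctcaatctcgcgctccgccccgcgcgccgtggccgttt

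The spellings searched on both strands in the 12 RefSeq start windows of the 7 genes were the E-box CACGTG, the M-box core CATGTG, which reads as CACATG on the other strand, and the 10-base CLEAR palindrome of lysosomal promoters, which is the E-box with GT before it and AC after it. Only the Fnip1 window held a match, a CACGTG that begins 75 bases before the start. Among 32817 windows of the same length over all genes, 6.02% held the E-box, 12.3% the M-box core and 0.241% the palindrome. The absence of these letters from the windows of Gpnmb and Flcn says nothing of binding elsewhere in those genes.

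Gpnmb (ENSMUSG00000029816, chromosome 6, 49036546 to 49070929, GRCm38, protein coding) was abundant after topical tamoxifen and low after injection. In topical controls it stood at 539, 390, 448, 336 and 428 CPM in replicates 1, 3, 5, 6 and 7. In topical cKO mice it stood at 890, 390, 835, 644 and 645 CPM in replicates 2, 3, 4, 5 and 7. The topical groups overlapped, because cKO replicate 3 sat among the controls while the other 4 cKO libraries lay above the highest control.

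After injection the controls held 4.02, 8.94, 5.53, 3.001 and 3.30 CPM in replicates 1, 3, 4, 5 and 6. The injected cKO mice held 5.11, 4.69, 5.09, 11.5 and 7.87 CPM in replicates 2, 4, 5, 6 and 7. Every injected library thus lay far below every topical one, and the injected groups overlapped each other. Raw counts were 4713 to 25258 in topical libraries and 42 to 192 in injected ones, so the low levels still rested on counts well over a floor of 3.

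**Figure D1:**
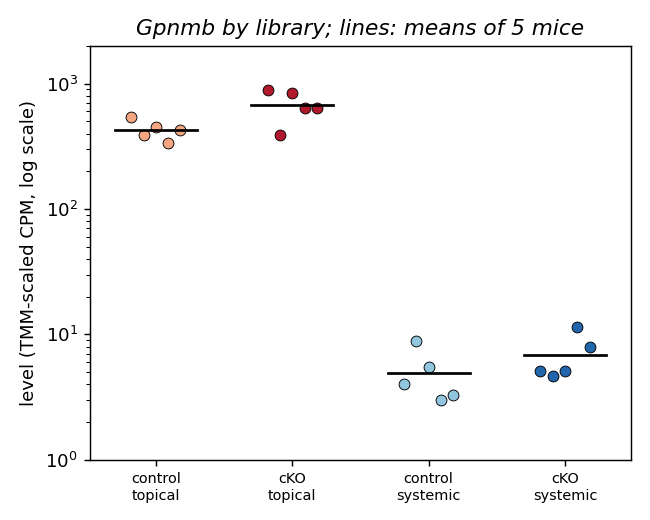
Level of Gpnmb in each of the 20 libraries (points; TMM-scaled CPM on a logarithmic axis), by genotype and route, with lines at the means of 5 mice. The topical libraries lie between 336 and 890 CPM and the injected ones between 3.001 and 11.5 CPM, with no overlap between routes.

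The difference between routes was 86.4-fold in controls (log2 fold change -6.43, SE 0.37) and 99.7-fold in cKO mice (-6.64, SE 0.38). These were the most negative and the second most negative fold changes of the 12424 genes, which is how Gpnmb came to be chosen. The lowest topical library exceeded the highest injected one 37.6-fold in controls and 33.9-fold in cKO mice. Among the injected libraries, the 6 over the satellite-like threshold of 50 CPM held 3.001 to 8.94 CPM of Gpnmb and the 4 under it held 4.69 to 11.5 CPM, all below the topical range. In bulk RNA, fewer cells that express the gene and less RNA per cell cannot be told apart.

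The genotype effect on Gpnmb did not pass the test in either route. In topical mice the mean was 681 ± 197 CPM in cKO against 428 ± 75.1 CPM in controls (SD, n = 5 each), a log2 fold change of 0.67 (SE 0.29) with an unadjusted p of 0.0328 and an edgeR adjusted p of 0.817. In injected mice the means were 6.85 ± 2.89 and 4.96 ± 2.43 CPM (SD, n = 5 each), a log2 fold change of 0.46 (SE 0.31, edgeR adjusted p = 0.517). That value was 0.20 without systemic cKO replicate 6, 0.79 without systemic control replicate 3 and 0.045 (SE 0.55) with the satellite-like split as a covariate. The difference between these effects was -0.21 (SE 0.43, edgeR adjusted p = 0.871), smaller than its error. It ranged from -0.47 to 0.12 with single libraries left out, the latter without systemic control replicate 3, and was -0.62 (SE 0.64) with the split as a covariate.

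Markers of the cell types best known for Gpnmb were low in these sorted cells. The 10 melanocyte markers summed to 5.25 to 12.6 CPM over both topical groups and 8.15 to 24.7 CPM over both injected groups, and 4 of the 10 passed the filter. Of the defining melanocyte genes, Dct was counted in all 20 libraries, whereas Sox10 was at 0 in 15, Mlana in 8, Tyr in 2 and Tyrp1 in 1. The 12 macrophage and Langerhans cell markers summed to 6.96 to 17.8 CPM over topical and 10.6 to 30.3 CPM over injected libraries, with 2 of 12 past the filter, C1qa at 0 in 14 libraries, Adgre1 in 11, Ptprc in 10 and Cd207 in 2. The 2 past the filter, Csf1r and Cd74, made up nearly all of this sum. Csf1r was counted in every library, at no more than 4.84 CPM, and Cd74 had group means of 9.62 to 18.4 CPM. The other genes of the list, at group means of at most 0.205 CPM, were too scarce to compare between routes. Whether melanocytes, macrophages or Langerhans cells had a part in the Gpnmb levels was not tested. Hair follicle markers summed to 26.9 to 45.3 CPM in topical and 24.1 to 38.0 CPM in injected libraries. Sebaceous gland markers summed to 706 to 2516 CPM in topical and 172 to 3276 CPM in injected libraries. Their group medians were 1526 and 2145 CPM in topical controls and cKO mice, against 938 and 1109 CPM in injected ones. The median log2 fold change of the 5 sebaceous genes past the filter was -0.96 between routes in controls and -1.07 in cKO mice. In both, 0 of the 5 were called. Both pairs of ranges overlap, and whether hair follicle or sebaceous cells had a part in the Gpnmb levels was not tested.

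The closest relative of Gpnmb, the melanosomal fibril gene Pmel, differed the other way. It rose in systemic against topical controls (log2 fold change 0.77, SE 0.21, edgeR adjusted p = 0.0142), with means of 9.46 ± 3.01 against 5.64 ± 1.85 CPM (SD, n = 5 each) and overlapping libraries. In the cKO mice it gave 0.29 (SE 0.21, edgeR adjusted p = 0.440), and neither genotype comparison nor the interaction called it. The Pmel call was lost without systemic control replicate 6 (edgeR adjusted p = 0.0618) and with the satellite-like split as a covariate (0.964). Of the reported binding partners of the GPNMB protein, the hyaluronan receptor gene Cd44 fell in injected against topical cKO mice (-0.98, SE 0.22, edgeR adjusted p = 0.00587), with topical libraries at 245 to 337 CPM, injected ones at 86.5 to 228 CPM and no overlap. In controls Cd44 gave -0.52 (SE 0.22, edgeR adjusted p = 0.1001). The syndecan gene Sdc4, the integrin genes Itga5 and Itgb1 and the sheddase gene Adam10 passed no test in any of the 5 contrasts.

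No gene followed Gpnmb closely over the 20 libraries. Likeness was measured as the root mean square difference in log2 CPM (with 0.5 CPM added), each gene centred on its own mean, leaving out predicted genes. A flat line would differ from Gpnmb by 3.27, the median gene differed by 3.29, and the 6 nearest were Sprr2a3 (1.95), Pyy (2.04), Krt6b (2.29), Ceacam12 (2.42), Sprr1b (2.43) and Krt7 (2.43). Sprr2a3 and Sprr1b encode small proline-rich proteins of the cornified envelope, Krt6b and Krt7 keratins, and Pyy the gut peptide YY. Sprr2a3 belongs to a family of near-identical genes, so its reads may be shared with copies. Unlike Gpnmb, these genes were spread widely within the topical groups, Krt6b from 6.10 to 711 CPM in cKO mice and Pyy from 4.78 to 207 CPM in controls. Of the other 6 members, Flcn ranked 602 of 11600 genes by this measure and the rest lay between 3902 (Fnip2) and 9148 (Tfe3).

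Expressed per kilobase of merged exon, which allows genes to be compared, the order of the 7 genes differed between routes mainly in the place of Gpnmb. In topical controls the means were 65.7 CPM per kb for Gpnmb, 5.09 for Flcn, 1.84 for Tfe3, 1.56 for Fnip1, 0.630 for Fnip2, 0.592 for Tfeb and 0.186 for Mitf. In injected controls Gpnmb, at 0.761 ± 0.373 CPM per kb (SD, n = 5), stood behind Flcn (3.68), Tfe3 (2.54) and Fnip1 (1.78) and within its SD of Tfeb (0.650) and Fnip2 (0.619), with Mitf last at 0.180. The cKO groups had the same order of the leading genes in each route, with Gpnmb at 104.5 CPM per kb after topical and 1.05 after systemic treatment. Neighbours whose SDs overlapped were Tfe3 and Fnip1 in every group, Fnip2 and Tfeb in every group, Fnip1 and Gpnmb in both injected groups, Gpnmb and Tfeb in injected controls, and Gpnmb and Fnip2 in injected cKO mice.

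Tfe3 (ENSMUSG00000000134, X chromosome, 7762560 to 7775202) was the most abundant family factor. It stood at 14.3, 20.2, 14.7, 17.98 and 18.1 CPM in topical control replicates 1, 3, 5, 6 and 7 and at 24.0, 25.5, 22.4, 23.5 and 22.1 CPM in systemic control replicates 1, 3, 4, 5 and 6. The injected controls were all higher, a log2 difference of 0.46 (SE 0.12). In cKO mice the topical libraries, at 15.5 to 20.5 CPM, overlapped the injected ones, at 16.3 to 23.2 CPM, with a difference of 0.14 (SE 0.12). The genotype effect on Tfe3 was 0.12 (SE 0.12) in topical and -0.21 (SE 0.12) in injected mice, and their difference of -0.32 (SE 0.18) had an edgeR adjusted p of 0.421. Among injected libraries, the 6 over the satellite-like threshold held 22.1 to 25.5 CPM of Tfe3 and the 4 under it held 16.3 to 23.2 CPM. With that split as a covariate the route difference in controls was 0.31, and its part in the higher Tfe3 level was not tested further.

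Tfeb (ENSMUSG00000023990, chromosome 17, 47737030 to 47792419), the factor for which lysosomal gene control was first described, was lower and nearly level across groups. Its means were 3.35 ± 1.06 CPM in topical controls, 3.62 ± 1.04 in topical cKO, 3.68 ± 0.64 in systemic controls and 3.11 ± 0.31 in systemic cKO mice (SD, n = 5 each). All pairs of groups overlapped, with log2 differences from -0.24 (SE 0.23), for genotype in injected mice, to 0.13 (SE 0.23), for route in controls. Topical control replicate 5, at 1.501 CPM, lay apart from the other 4 of its group at 3.51 to 4.05 CPM.

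Mitf (ENSMUSG00000035158, chromosome 6, 97807052 to 98021349), the melanocyte master regulator of the family, was near the lower end of what these libraries resolve. Its means were 1.15 ± 0.57, 1.12 ± 0.44, 1.12 ± 0.49 and 1.08 ± 0.33 CPM (SD, n = 5 each) in topical control, topical cKO, systemic control and systemic cKO mice, from 7 to 68 reads in a library. Its log2 differences between groups lay between -0.13 and 0.03 with SEs of 0.40 to 0.42, so a difference of the size seen was not detectable at this depth. Gene counts do not separate the isoforms of Mitf, which start from different first exons. The fourth family gene, Tfec, had 0 reads in all 20 libraries.

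Flcn (ENSMUSG00000032633, chromosome 11, 59791408 to 59810016, minus strand), the folliculin gene, was the regulator with the clearest difference between routes. Topical controls held 23.3, 22.5, 18.3, 20.9 and 25.04 CPM in replicates 1, 3, 5, 6 and 7, and injected controls 14.4, 15.3, 17.6, 15.9 and 16.3 CPM in replicates 1, 3, 4, 5 and 6. Topical cKO mice held 27.3, 27.6, 27.4, 20.8 and 20.98 CPM in replicates 2, 3, 4, 5 and 7, and injected cKO mice 18.7, 12.5, 13.2, 16.6 and 17.0 CPM in replicates 2, 4, 5, 6 and 7. Within each genotype every injected library was below every topical one. The log2 differences were -0.47 (SE 0.13) in controls and -0.68 (SE 0.13) in cKO mice. The genotype effects were 0.17 (SE 0.13) in topical and -0.04 (SE 0.13) in injected mice, neither past the test. With the satellite-like split as a covariate the route difference in controls was -0.81 and in cKO mice -0.75.

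Fnip1 (ENSMUSG00000035992, chromosome 11, 54438199 to 54518235) and Fnip2 (ENSMUSG00000061175, chromosome 3, 79455974 to 79567796, minus strand) encode the folliculin-interacting proteins. Fnip1 ranged from 8.36 to 15.01 CPM in topical controls, 8.36 to 20.3 in topical cKO, 7.34 to 21.2 in systemic controls and 4.13 to 18.1 in systemic cKO mice. Fnip2 ranged from 4.94 to 6.35, 3.29 to 8.64, 3.93 to 6.62 and 1.25 to 7.12 CPM in the same groups. Neither gene separated any pair of groups compared, and their log2 differences within a route or genotype, between -0.24 and 0.19, were smaller than their SEs of 0.32 to 0.35.

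Their spread lay within groups instead. In systemic cKO mice, the highest library exceeded the lowest 4.39-fold for Fnip1 and 5.72-fold for Fnip2, against 1.498-fold for Flcn and 1.43-fold for Tfe3. The low library in that group was replicate 4 for Fnip1, Fnip2, Mitf, Flcn, Tfe3 and Gpnmb alike. The share of counts from mitochondrial genes differed between the extreme libraries. In each of the 4 groups the library highest in Fnip1 had a larger share (7.25% against 2.96% in topical cKO, 5.24% against 3.07% in topical controls, 6.05% against 2.45% in systemic cKO, and 5.94% against 2.44% in systemic controls) than the library lowest in it. The same order of mitochondrial shares held between the extreme libraries of Fnip2 and of Mitf in all 4 groups. It was reversed between the extreme libraries of Gpnmb in both topical groups (3.56% in the highest against 7.25% in the lowest in cKO, 3.68% against 5.78% in controls), and systemic control replicate 4, with the lowest share of its group (1.87%), had the second highest Fnip1 level there (13.8 CPM). Whether library quality had a part in this spread was not tested.

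**Figure D2:**
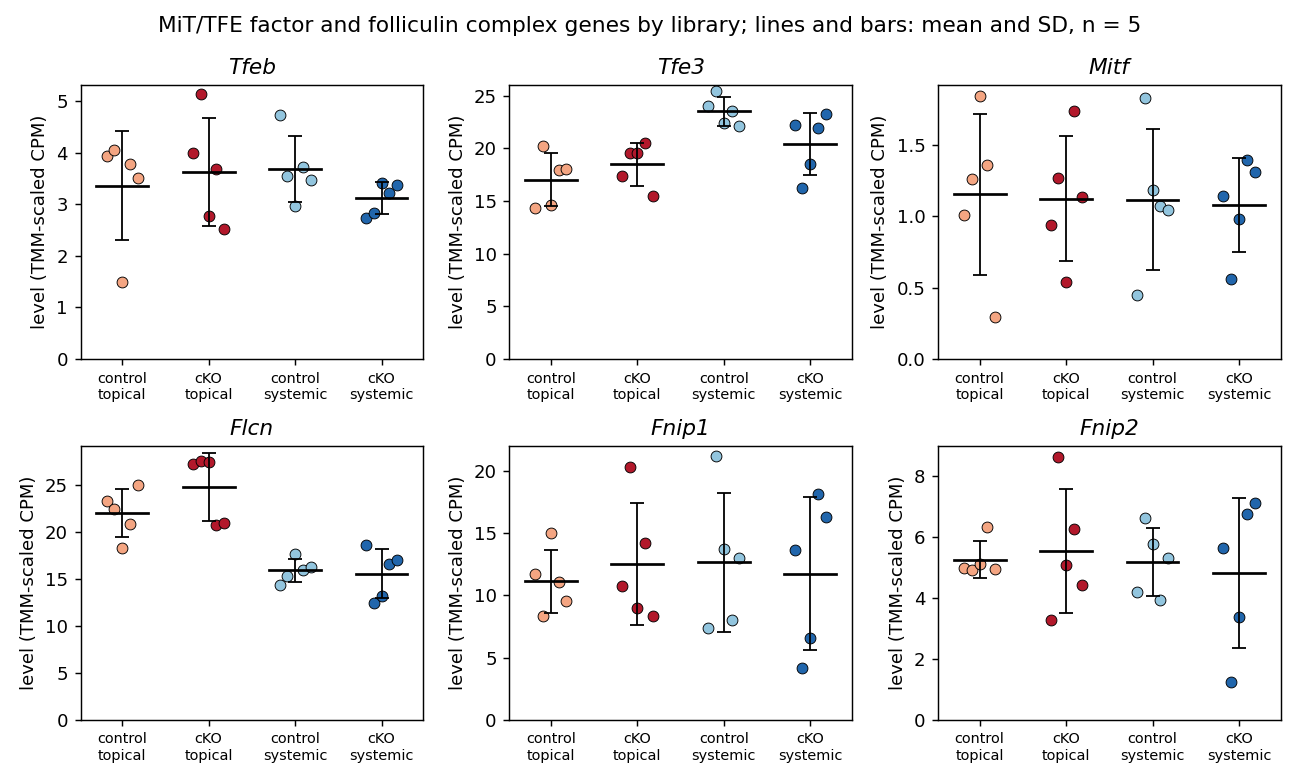
Levels of the 3 transcription factor genes (top) and 3 folliculin complex genes (bottom) in each of the 20 libraries (points; TMM-scaled CPM, linear axes from 0), with the mean and SD of 5 mice per group. Flcn separates the routes in both genotypes and Tfe3 in controls but not in cKO mice, while Fnip1 and Mitf scatter within every group.

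None of the 7 genes was called in cKO against control mice by either route or in the interaction, with edgeR's quasi-likelihood test and an adjusted p under 0.05. Over all 12424 genes the share called was 0.129% in topical mice, 1.89% in injected mice and 0.25% for the interaction. At an unadjusted p under 0.05 only Gpnmb in topical mice passed. Of all genes, 703 did in topical mice, 1907 in injected mice and 1739 in the interaction. The DESeq2 Wald test also called none of the 7. No member kept its 5 cKO libraries apart from its 5 control libraries in either route, against 1.4% of all genes in topical and 1.94% in injected mice. Between routes the libraries of Gpnmb, which was chosen for that difference, did not overlap in either genotype. Of the other members, Tfe3 and Flcn did not overlap in controls and Flcn alone in cKO mice. Over all genes 13.8% and 7.39% did not overlap in controls and in cKO mice. The genotype, route and interaction contrasts share libraries, so their values stand side by side and are not independent.

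**Figure D3:**
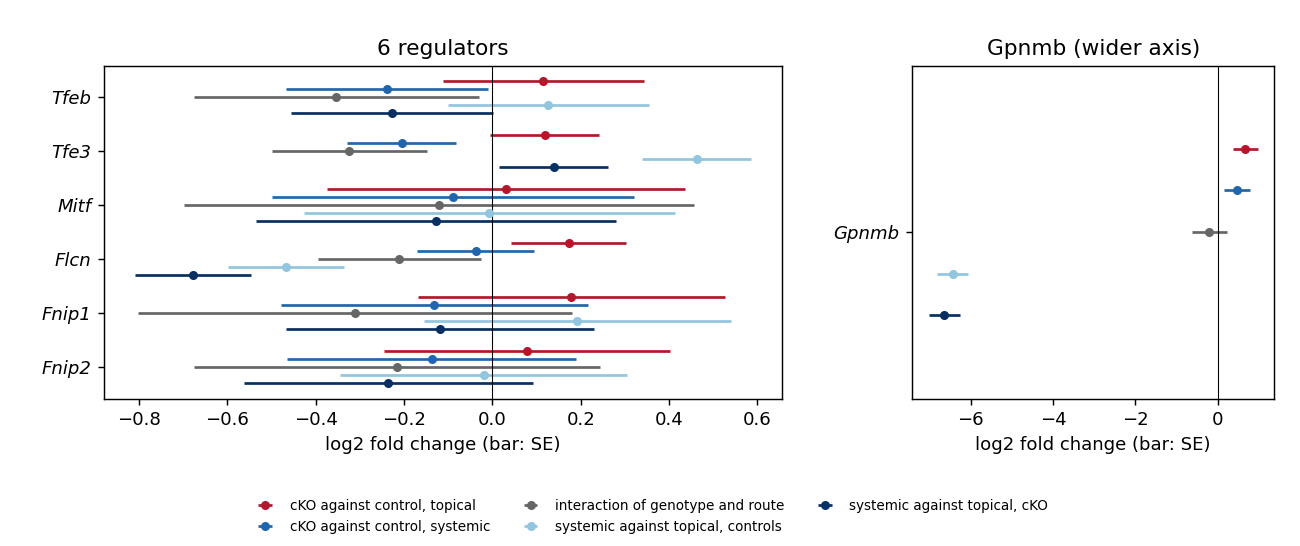
Log2 fold changes (points) and their SEs (bars) of the 6 regulators (left) and of Gpnmb (right, on a wider axis) in the 5 contrasts; the interaction is the genotype effect in injected minus that in topical mice. The Gpnmb route differences, -6.43 and -6.64, lie far outside the range of the regulators, whose largest difference is -0.68 for Flcn in cKO mice.

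Known targets of the MiT/TFE factors were read from a list of 58 lysosomal and autophagy genes that contains none of the 7 members, of which 56 passed the filter. In topical mice edgeR called 0 of the 56. At an unadjusted p under 0.05 there were 3, beside 703 of all 12424 genes. The DESeq2 Wald test called 1, the β-galactosidase gene Glb1. Glb1 was lower in all 5 cKO libraries (6.50 to 9.49 CPM) than in all 5 controls (9.53 to 13.7 CPM), a log2 fold change of -0.62 (SE 0.15) that did not pass the edgeR test (adjusted p = 0.175). The list's median log2 fold change was -0.05, beside 0.02 over all genes, and all 13 proton pump subunits measured had negative values, none past the test. In injected mice 11 of the 13 had positive values by genotype and in the interaction all 13 did, again with none past the test.

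In injected mice 3 of the 56 rose in cKO against control, where 1.36% of all genes rose. Among them were the lysosomal membrane gene Laptm4a (log2 fold change 2.51, SE 0.34, edgeR adjusted p = 0.000595) and the arylsulfatase A gene Arsa (0.88, SE 0.23, 0.0499). The interaction called Laptm4a (2.78, SE 0.46, edgeR adjusted p = 0.0115) and Glb1 (1.03, SE 0.21, 0.0392), both higher, where 0.185% of all genes were. Laptm4a divided the injected libraries by their satellite-like transcripts, at 8.88 to 19.8 CPM in the 6 over the threshold and 55.9 to 118 CPM in the 4 under it, where topical libraries held 40.1 to 116 CPM. With the split as a covariate no gene of the list was called in either contrast, and the genotype effect on Laptm4a in injected mice was 0.62 (SE 0.40). The Arsa call also ended when any one of 9 of the 10 injected libraries was left out (all but cKO replicate 2). The Glb1 interaction ended with 14 of the 20 libraries left out singly.

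Between routes in controls, 18 of 56 fell and 0 rose, beside 8.16% and 10.2% of all genes, with 18.3% called in all. The list's median log2 fold change was -0.34, beside 0.00 over all genes. They comprised 7 of 23 enzymes, 4 of 10 membrane and transport genes, 4 of 13 proton pump genes and 3 of 10 autophagy genes. Laptm4a had the smallest p (-2.86, SE 0.34, edgeR adjusted p = 3.71e-05), and the α-galactosidase A gene Gla was also among them (-1.29, SE 0.22, 0.000512). All 5 injected controls and no topical control were over the satellite-like threshold. With that split as a covariate the count in controls was 0 of 56, with fold changes of -0.73 (SE 0.47) for Laptm4a, -0.90 (SE 0.45) for Gla and -0.99 (SE 0.39) for Cd63.

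In cKO mice 7 of 56 fell and 2 rose after injection, beside 4.02% and 5.19% of all genes and 9.22% called in all. The list's median was -0.19, beside -0.01. Cd63, which encodes a tetraspanin of late endosomes, lysosomes and exosomes, had the smallest p (-1.52, SE 0.20, edgeR adjusted p = 7.00e-05). Cd63 stood at 199, 127, 210, 141 and 203 CPM in topical cKO replicates 2, 3, 4, 5 and 7 and at 57.3, 76.3, 56.1, 66.8 and 50.6 CPM in injected cKO replicates 2, 4, 5, 6 and 7, with no overlap. The injected cKO library over the satellite-like threshold, replicate 2, lay among the other 4. In controls Cd63 also fell (-1.11, SE 0.20, edgeR adjusted p = 0.000762), to 43.1 to 80.3 CPM from 125 to 155 CPM.

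The β-glucuronidase gene Gusb (-0.58, SE 0.15, edgeR adjusted p = 0.0179) and the acid α-glucosidase gene Gaa (-0.51, SE 0.14, 0.0196) also fell in injected cKO mice, whereas Glb1 (0.70, SE 0.15, 0.00442) and Arsa (0.94, SE 0.23, 0.0116) rose. Gusb lost its call without topical or injected cKO replicate 5, and Gaa without topical replicate 4 or injected replicate 6 or 7. The Arsa call ended, and that of Gaa too, when only the cKO libraries were fitted, in which the list's count was 4. In all, 6 target genes were called in both genotypes, all lower, among them Atp6v1b2, Cd63, Gaa, Gabarapl1 and Gla. That is 6 of the 18 in controls and 6 of the 9 in cKO mice, comparisons that share no library. Over all genes 455 were called in both, 20.0% of those called in controls and 39.7% of those called in cKO mice.

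**Figure D4:**
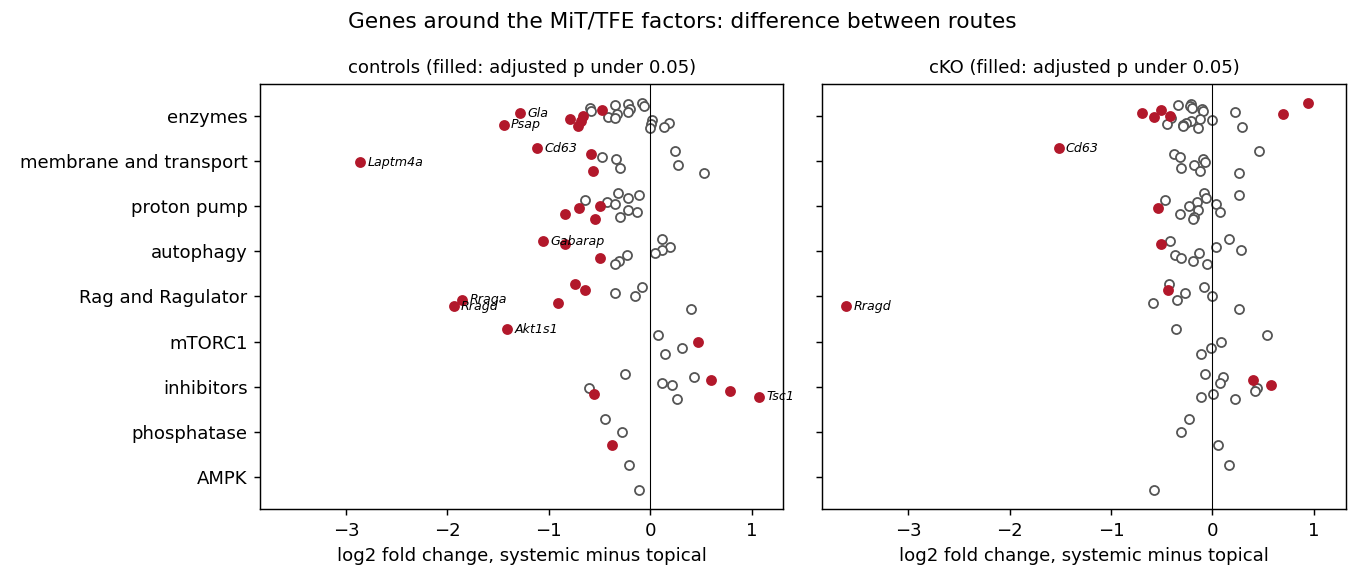
Log2 fold changes, systemic minus topical, of the genes past the filter in the lysosomal and autophagy list (upper 4 rows) and the nutrient-sensing list (lower 5 rows), in controls (left) and cKO mice (right); filled points passed an adjusted p under 0.05 and those beyond a log2 fold change of 1 are named. Filled points of the upper rows lie left of 0 in controls, 18 of 18, and in cKO mice 7 of 9 do.

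The second list held 30 nutrient-sensing genes around the MiT/TFE factors, of which 29 passed the filter. They were Rag and Ragulator genes, mTORC1 genes, genes of mTORC1 inhibitors, phosphatase genes and genes of the kinase AMPK. In topical mice edgeR called 0 of 29 by genotype and DESeq2 0. At an unadjusted edgeR p under 0.05 there were 2, beside 703 of all 12424 genes. In injected mice 2 of 29 rose in cKO against control, where 1.36% of all genes rose: Rraga, the RagA GTPase gene (1.42, SE 0.18, edgeR adjusted p = 0.000426), and Akt1s1, which encodes the mTORC1 inhibitor PRAS40 (1.18, SE 0.28, 0.0296). Rraga was also called in the interaction (1.502, SE 0.25, edgeR adjusted p = 0.0115). Rraga followed the satellite-like split as Laptm4a did, at 6.72 to 10.48 CPM in the 6 libraries over the threshold and 17.5 to 27.3 CPM in the 4 other injected libraries. No gene of the list was called in these contrasts with the split as a covariate (Rraga 0.56, SE 0.24, by genotype in injected mice), and the Akt1s1 call ended with 7 of 10 libraries left out singly.

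Between routes in controls 12 of 29 were called, beside 18.3% of all genes, 4 higher and 8 lower, beside 10.2% and 8.16%. The lower ones included 5 of the 9 Rag and Ragulator genes measured, led by Rraga (-1.85, SE 0.18, edgeR adjusted p = 5.42e-06) and the Ragulator gene Lamtor3 (-0.65, SE 0.13, 0.00178), with Akt1s1 (-1.41, SE 0.28, 0.00185) next. Of the higher ones, 3 were inhibitors of mTORC1 signalling: Nprl2 of the GATOR1 complex (0.60, SE 0.11, edgeR adjusted p = 0.00109), the sestrin gene Sesn3 (0.78, SE 0.19, 0.00697) and Tsc1 of the tuberous sclerosis complex (1.08, SE 0.30, 0.0179). The inhibitor gene Tbc1d7, of the same complex as Tsc1, was lower (-0.56, SE 0.18, edgeR adjusted p = 0.0345), as was Akt1s1. Tsc1 lost its call without systemic control replicate 3, without which 6 of the list were called, and with the split as a covariate 0 of 29 were called. In that fit the fold changes were -0.84 (SE 0.28) for Rraga, -0.82 (SE 0.25) for Lamtor3, 0.54 (SE 0.24) for Nprl2, 0.43 (SE 0.39) for Sesn3, 0.35 (SE 0.61) for Tsc1 and 0.010 (SE 0.49) for Akt1s1.

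In cKO mice 4 of 29 were called between routes, beside 9.22% of all genes. Rragd, which encodes the RagD GTPase on which folliculin acts, is itself a known MiT/TFE target. It passed the low-count filter only through topical libraries, so its fold changes and calls between routes are not independent of that filter. In cKO mice it gave -3.61 (SE 0.67, edgeR adjusted p = 0.00133). It was scarce: 0.744, 2.19, 0.999, 0.663 and 1.65 CPM in topical cKO replicates 2, 3, 4, 5 and 7, or 13 to 38 reads, and 0.176, 0.0489, 0.0702, 0.253 and 0 CPM in injected replicates 2, 4, 5, 6 and 7, or 0 to 4 reads. The groups did not overlap, and the injected libraries lay at or near the floor of 3 reads. In controls Rragd gave -1.94 (SE 0.66, edgeR adjusted p = 0.0454), a call that ended without any one of 8 of the 10 libraries. The control libraries overlapped, at 0.105 to 1.07 CPM after topical treatment and 0 to 0.243 CPM after injection. Lamtor3 fell in cKO mice too (-0.43, SE 0.13, edgeR adjusted p = 0.0339), while Nprl2 (0.40, SE 0.11, 0.0264) and the sestrin gene Sesn1 (0.57, SE 0.15, 0.0163) rose. When only the cKO libraries were fitted the count was 1 and the Rragd call was kept. Lamtor3, Nprl2 and Rragd were called in both genotypes, 3 of the 12 in controls and 3 of the 4 in cKO mice, beside the shares of all genes called in both given above. The limit that the filter sets on Rragd holds for these counts too.

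**Figure D5:**
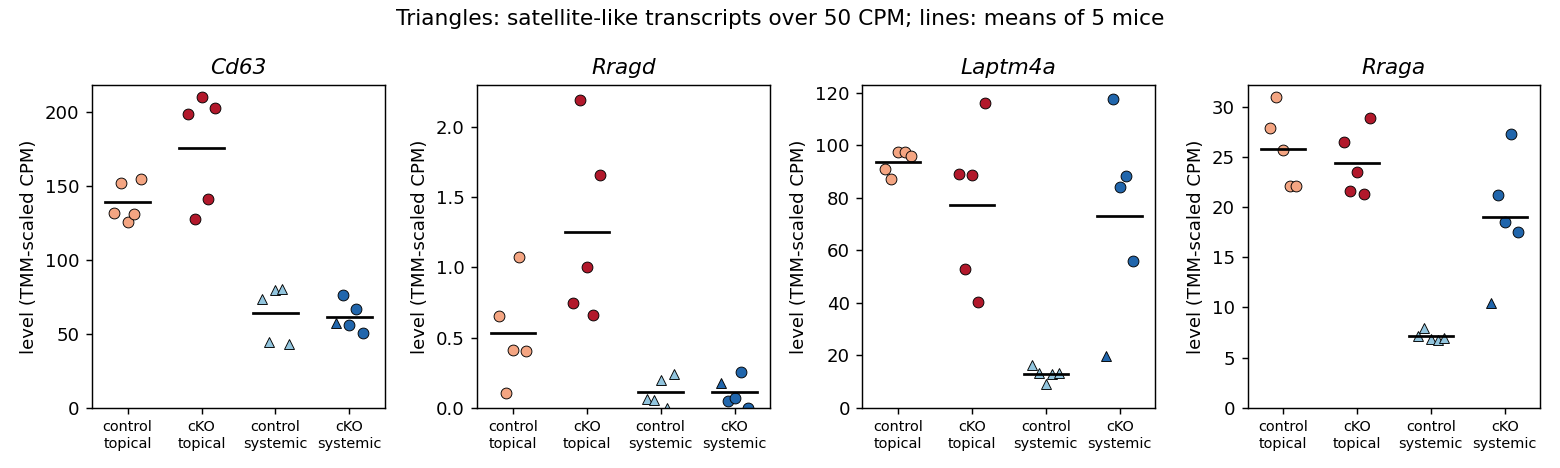
Levels of the target genes Cd63 and Laptm4a and the GTPase genes Rragd and Rraga in each of the 20 libraries (TMM-scaled CPM, linear axes from 0), with lines at the means of 5 mice and triangles for the 6 libraries with satellite-like transcripts over 50 CPM. Cd63 is low in injected libraries of both kinds. Rragd is low there too, but its control libraries overlap between routes, at 0.105 to 1.07 CPM topical and 0 to 0.243 CPM injected. Laptm4a and Rraga are low only in the 6 triangles.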

How the data were processed

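The 20 libraries were SmartSeq II preparations of total RNA from sorted keratinocytes, per the labels. The authors deposited raw counts, whole-number reads per gene, made with STAR and featureCounts on GRCm38 (mm10) per the submitters' processing notes. Versions, annotation release and strand setting are not given in the sources used here. No annotated gene of GENCODE M21 shares exonic bases with the 7 genes.

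Counts were fitted with edgeR 4.0.16 in R 4.3.3: TMM factors, filterByExpr (minimum count 10, minimum total 15), 1 coefficient per group over all 20 libraries, robust quasi-likelihood F tests, two-sided, Benjamini-Hochberg adjustment over 12424 genes, calls at an adjusted p under 0.05. Errors are SDs over 5 mice or SEs of log2 fold changes. The fit was tested on simulated data. Members were not tested between routes. The members, the lists and the satellite-like split were chosen with earlier results of these data known, so the lists' directions are no independent evidence. Named genes were the members, Tfec, 6 relatives and partners of Gpnmb, the 6 most alike in pattern, and from each list and contrast up to 3 called genes in each direction with the smallest adjusted p, some of which are not reported here. Genes named beyond that, as called in both genotypes, by DESeq2, or as the inhibitor called lower, were chosen after their values were seen. Alternatives were DESeq2 1.42.0 (size factors, Wald test), no filter, only the libraries compared, the replicate number as a block, the satellite-like split (50 CPM) as a covariate, and leaving out each library. Reads carry no stated molecular identifier, and counting error alone understates the error of a value.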

Additional observations from a re-analysis of the deposited data

Results flagged for a closer look

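Of 72 groups of 5 libraries checked for 18 genes, 6 had a library far from the other 4, where chance gives about 1 in 20. Tfeb stood at 1.501 CPM in topical control replicate 5, against 3.51 to 4.05 CPM in the others, and Fnip2 at 6.35 CPM in topical control replicate 6, against 4.94 to 5.12 CPM. Sprr2a3 reached 430 CPM in topical cKO replicate 7, against at most 95.4 CPM, and 44.0 CPM in systemic control replicate 1, against at most 1.94 CPM. Krt6b stood out in the same libraries, at 711 CPM in topical cKO replicate 7, against at most 106 CPM, and at 33.4 CPM in systemic control replicate 1, against at most 6.18 CPM.

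The genotype effect differed between routes by the interaction test for 3 genes of the lists, with log2 differences of 2.78 for Laptm4a, 1.03 for Glb1 and 1.502 for Rraga. With the satellite-like split as a covariate, which holds all 5 systemic controls and 1 cKO library, none of the 3 was called and the differences were 0.90 (SE 0.46), 0.48 (SE 0.27) and 0.64 (SE 0.27).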

How the results depend on the processing

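None of the 7 genes was called for genotype or interaction under any alternative or with any library left out. Gpnmb was lower after injection in every fit, from -6.76 to -6.30 in controls and -6.90 to -6.52 in cKO mice with libraries left out, and -5.93 in controls with the satellite-like split as a covariate. That covariate brought both lists to 0 calls in injected mice by genotype, in the interaction and between routes in controls. It turned the sign of Flcn (0.23), Fnip1 (0.11), Fnip2 (0.12), Mitf (0.032), Arsa (-0.49) and Akt1s1 (-0.058) by genotype in injected mice. Signs also turned for Flcn (0.056) and Fnip2 (0.039) in the interaction, and for Akt1s1 (0.010) and Fnip1 (-0.11) between routes in controls. The DESeq2 Wald test called 1 target gene by genotype in topical mice and 7 in injected mice. Fitting only the libraries compared gave 1 target and 1 nutrient-sensing gene by genotype in injected mice, and 4 and 1 between routes in cKO mice. No filter gave 4 and 2 in the last. The causes of these shifts were not tested.

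With the replicate number as a block, 5 target genes were called by genotype in injected mice, 0 of either list in the interaction and 2 nutrient-sensing genes between routes in cKO mice, and Mitf turned to 0.021 by genotype in injected mice. The numbers do not pair the samples: of 20 same-numbered pairs 9 had a correlation of deviations over 0.1 (range -0.31 to 0.51), and 4 of 20 libraries correlated best with their own number.

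With single libraries left out, target genes called ranged from 1 to 8 by genotype in injected mice (8 without systemic cKO replicate 2), 1 to 5 in the interaction and 4 to 9 between routes in cKO mice. Nutrient-sensing genes ranged from 1 to 3, 1 to 2, 6 to 11 between routes in controls and 1 to 5 in cKO mice. Signs turned for Tfeb (-0.064 to 0.21), Mitf (-0.24 to 0.26), Fnip1 (-0.059 to 0.31) and Fnip2 (-0.14 to 0.23) by genotype in topical mice, for Mitf (-0.28 to 0.16), Flcn (-0.11 to 0.035), Fnip1 (-0.35 to 0.13) and Fnip2 (-0.33 to 0.13) in injected mice, and for Gpnmb (-0.47 to 0.12), Mitf (-0.35 to 0.16) and Fnip2 (-0.41 to 0.053) in the interaction. Between routes in controls they turned for Tfeb (-0.053 to 0.20), Mitf (-0.28 to 0.22), Fnip1 (-0.071 to 0.33) and Fnip2 (-0.12 to 0.060). In cKO mice they turned between routes for Mitf (-0.28 to 0.11), Fnip1 (-0.34 to 0.12) and Fnip2 (-0.43 to 0.032). Mitf rested on 7 to 68 reads a library, which limits its precision.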
